A study of Mus musculus with 17 samples.

Results

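The NDST3-treated PD model was compared with the 6-OHDA-induced PD model by ATAC-seq, region by region over the promoters of the mouse brain. ATAC-seq cuts open chromatin with the Tn5 transposase, so the tag signal of a region rises with how accessible its DNA is. The comparison covered every promoter region with a value in all 3 groups, which was 3537 of the 3582 regions deposited, and each group had 1 library. The ratio for a region is the log2 of the NDST3-treated signal over the 6-OHDA signal. With 1 library per group no test was possible, no p-value is given for any ATAC-seq value, and the ratios describe these libraries only.

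All mice were wild-type ICR animals. For the 6-OHDA-induced PD model, mice aged 8 weeks received 6-OHDA at 10 µg/µl into the substantia nigra on 1 side. This toxin is taken up by dopamine neurons and kills them. In the NDST3-treated arm, 2 µl of NDST3 was injected at the same site 5 days after the lesion. The study's methods describe an adeno-associated virus with human NDST3 and a lentivirus with NDST3, both under the CMV promoter, which is active in many cell types, and do not say which was injected for these libraries. The lesioned mice of the other arm received saline, so the vector and the NDST3 it carries cannot be told apart here. The healthy controls (sham) have neither lesion nor NDST3. The labels do not say how many animals gave the nuclei of a library.

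Promoters of active genes are usually free of tightly packed nucleosomes, and they often remain accessible whether or not transcription of the gene changes. NDST3 is a heparan sulfate deacetylase and sulfotransferase of the Golgi. H3K27ac, the acetylation of histone H3 at lysine 27, marks active promoters and enhancers and was measured in the same 3 conditions by CUT&RUN. The comparison of the treated with the lesioned brain asks whether promoter accessibility differs once NDST3 is supplied after the lesion.

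The regions were narrow and lay close to start sites. They were annotated from -1000 to 951 bases from a start (median -313), and 2236 of them (63.2%) were exactly 100 bases wide, with a highest width of 283. They named 2650 genes, 1903 of them through 1 region and 747 through 2 or more. The name with most regions, Rnu6 with 11 on 6 chromosomes, belongs to the multicopy U6 small nuclear RNA genes, whose reads can be shared between copies. The 45 regions without sham and NDST3-treated values all lay on chromosome X, where 19 of 64 regions could be compared. The positions below are those deposited. The sources give mm10 as the build, but of the 3423 regions whose gene name was found on the same chromosome of RefSeq's GRCm38 annotation, 9.44% lay within 1000 bases of that gene's start. No sequence was therefore read by the deposited positions.

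Promoter sequences of a few of the genes described below are shown here by gene name, from RefSeq on GRCm38.p6, running from 250 bases before the start to 50 bases after it. Of the 2650 genes, 1920 had such a window. Capitals mark matches, on either strand, to 9 short motifs, namely the CRE (TGACGTCA), the E-box (CACGTG), the GC box (GGGCGG), the CCAAT box (CCAAT), the NRF1 motif (GCATGCGC), the ETS motif (CCGGAAG), the YY1 motif (AAGATGGC), the AP-1 motif (TGANTCA) and the TATA box (TATAAA). Snd1 held the strongest accessibility of the table by mean signal, Gen1 had the highest and Commd9 one of the lowest ratios among named regions, Ncoa7 is a gene that the study follows as a candidate mediator of NDST3, and Slc6a3 encodes the dopamine transporter. Snd1 (chr6:28480098-28480397, plus strand) is 60.3% G and C and holds 2 GC boxes, 2 CCAAT boxes and an ETS motif. Gen1 (chr12:11265758-11266057, minus strand) is 67% G and C with 2 GC boxes and 2 ETS motifs of which the second of each adjoin. Commd9 (chr2:101886012-101886311, plus strand) is 56% G and C with an E-box and a YY1 motif. Ncoa7 has 2 RefSeq windows on the minus strand, the first (chr10:30803277-30803576, 63.3% G and C) with a GC box and the second (chr10:30655818-30656117, 48.3%) with none of the motifs, and the table does not say to which start its distances refer. Slc6a3 (chr13:73536497-73536796, plus strand) is 66% G and C with 3 GC boxes and an E-box.
Snd1: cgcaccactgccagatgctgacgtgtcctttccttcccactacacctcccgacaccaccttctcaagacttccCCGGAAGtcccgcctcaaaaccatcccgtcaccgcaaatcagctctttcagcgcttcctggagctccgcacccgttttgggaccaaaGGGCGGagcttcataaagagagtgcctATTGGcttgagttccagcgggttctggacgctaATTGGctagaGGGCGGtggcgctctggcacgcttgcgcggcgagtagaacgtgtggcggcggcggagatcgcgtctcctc
Gen1: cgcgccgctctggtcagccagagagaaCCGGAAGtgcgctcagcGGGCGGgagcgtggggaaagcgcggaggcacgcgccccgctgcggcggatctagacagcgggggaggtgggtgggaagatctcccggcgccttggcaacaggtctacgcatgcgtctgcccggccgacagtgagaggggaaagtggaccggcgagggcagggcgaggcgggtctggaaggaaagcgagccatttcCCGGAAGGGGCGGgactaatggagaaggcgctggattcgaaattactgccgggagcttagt
Commd9: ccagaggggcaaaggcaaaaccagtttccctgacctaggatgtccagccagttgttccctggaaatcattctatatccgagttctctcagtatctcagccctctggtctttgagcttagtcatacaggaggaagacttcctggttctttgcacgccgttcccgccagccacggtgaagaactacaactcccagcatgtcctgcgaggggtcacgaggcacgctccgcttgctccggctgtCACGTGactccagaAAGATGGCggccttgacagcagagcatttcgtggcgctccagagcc
Ncoa7, first window: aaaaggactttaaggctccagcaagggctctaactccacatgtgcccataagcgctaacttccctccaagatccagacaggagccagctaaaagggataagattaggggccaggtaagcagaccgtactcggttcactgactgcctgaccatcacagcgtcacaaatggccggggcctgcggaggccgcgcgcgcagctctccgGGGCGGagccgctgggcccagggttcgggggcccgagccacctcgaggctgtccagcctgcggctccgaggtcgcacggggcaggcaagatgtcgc
Ncoa7, second window: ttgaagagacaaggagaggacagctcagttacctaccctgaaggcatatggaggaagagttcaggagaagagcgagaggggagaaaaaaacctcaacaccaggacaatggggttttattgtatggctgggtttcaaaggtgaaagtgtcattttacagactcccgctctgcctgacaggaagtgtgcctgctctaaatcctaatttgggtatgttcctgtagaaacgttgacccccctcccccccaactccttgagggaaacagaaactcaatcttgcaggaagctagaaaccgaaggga
Slc6a3: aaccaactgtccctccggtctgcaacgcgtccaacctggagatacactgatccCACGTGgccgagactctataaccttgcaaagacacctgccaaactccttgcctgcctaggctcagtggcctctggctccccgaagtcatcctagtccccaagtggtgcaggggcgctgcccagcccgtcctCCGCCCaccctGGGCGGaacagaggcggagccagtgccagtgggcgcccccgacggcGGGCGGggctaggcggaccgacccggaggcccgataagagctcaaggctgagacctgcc

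Over all 3537 regions, the NDST3-treated PD model had slightly more signal than the 6-OHDA-induced PD model. The median log2 ratio was 0.110, which is 1.08-fold. The 95% order-statistic interval of that median, from 0.0962 to 0.127, treats regions as independent draws, which neighbouring regions of a gene were not. It holds for these 2 libraries only and says nothing of the spread between libraries or animals. Signal was higher in 2082 regions (58.9%), lower in 1355 and equal in 100. Single regions scattered widely around the median, with an SD of 0.623 and with 5th and 95th percentiles of -0.930 and 1.05.

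The upward shift was of the size of the difference between whole columns. The median signal of a region was 17.3 in the 6-OHDA column, 18.8 in the NDST3-treated column and 16.9 in sham, so the NDST3-treated column stood 0.123 above the 6-OHDA column on the log2 scale by its median and 0.125 above it by its total. How the authors scaled the columns to each other is not stated in the sources used here, and the depth of the libraries is unknown. After the columns were scaled to the same median, 1726 regions (48.8%) were higher and 1811 lower, with a median ratio of -0.0121. A common rise of open chromatin and a deeper or differently scaled NDST3-treated library therefore cannot be told apart, and ratios below are best read against the median of 0.110.

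By size alone, 208 regions (5.88% of all) were higher with NDST3 by 2-fold or more and 158 (4.47%) were lower. Of these 366 regions 56.8% were higher, and after scaling to the same median the split turned, with 143 higher and 199 lower (41.8% higher). At 1.5-fold, 576 regions (16.3%) were higher and 368 (10.4%) lower, or 409 and 483 after scaling. The direction of the excess thus depended on the scaling at every fold used.

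The large ratios lay among the weak regions. When regions were split into 4 bins of equal size by their mean signal over the 3 groups, the SD of the log2 ratio fell from 0.953 in the weakest bin (mean signal 1 to 9.87) to 0.635, 0.421 and 0.243 in the strongest bin (36.7 to 879). The weakest bin held 239 of the 366 regions past 2-fold (65.3%), 126 higher and 113 lower. The second bin held 68 and 38, the third 14 and 7, and the strongest none in either direction, where Rpl12 came closest.

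**Figure D1:**
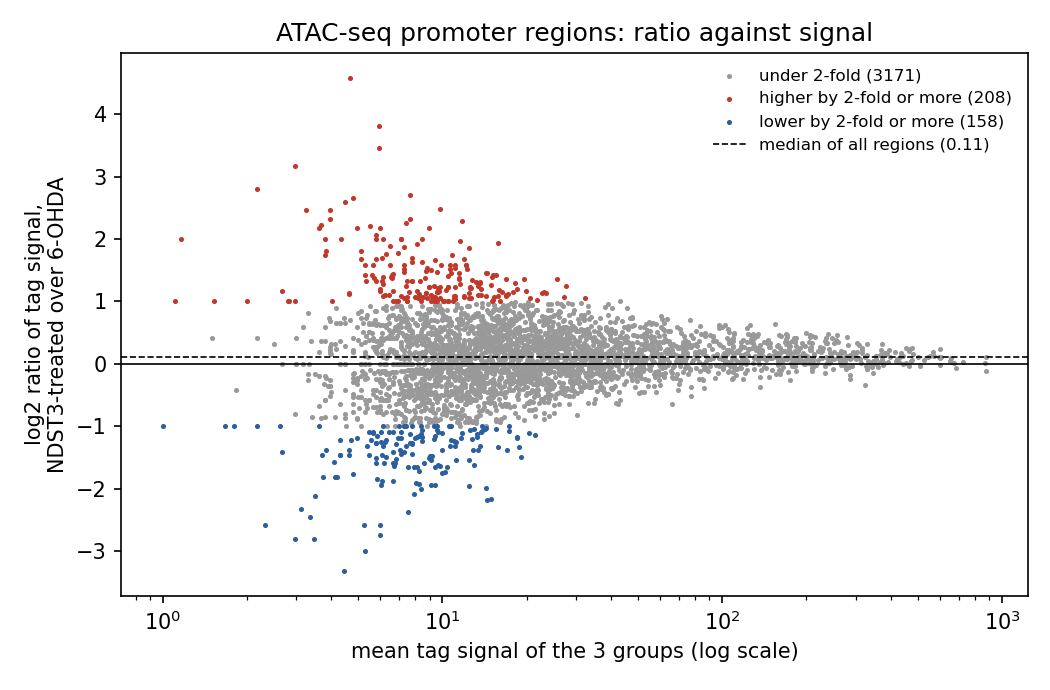
Log2 ratio of ATAC-seq tag signal in the NDST3-treated over the 6-OHDA-induced PD model (vertical axis) against the mean tag signal of the 3 groups (horizontal axis, log scale), 1 point per region for 3537 regions. Points past 2-fold are coloured, 208 higher and 158 lower, and lie at low signal. The dashed line is the median of all regions.

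The strongest promoters carried the clearest common shift. In the strongest bin 74.1% of regions were higher with NDST3, against 57.8%, 54.1% and 49.5% going down to the weakest, while the medians were 0.128, 0.114, 0.0979 and 0. After scaling to the same median these became 0.00563, -0.00868, -0.0247 and -0.123, so the medians of the 3 upper bins lay close to 0 once the columns were level. The 6-OHDA values all came in steps of 0.25, as those of the other columns did not, so the ratios of weak regions rest on few such steps.

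**Figure D2:**
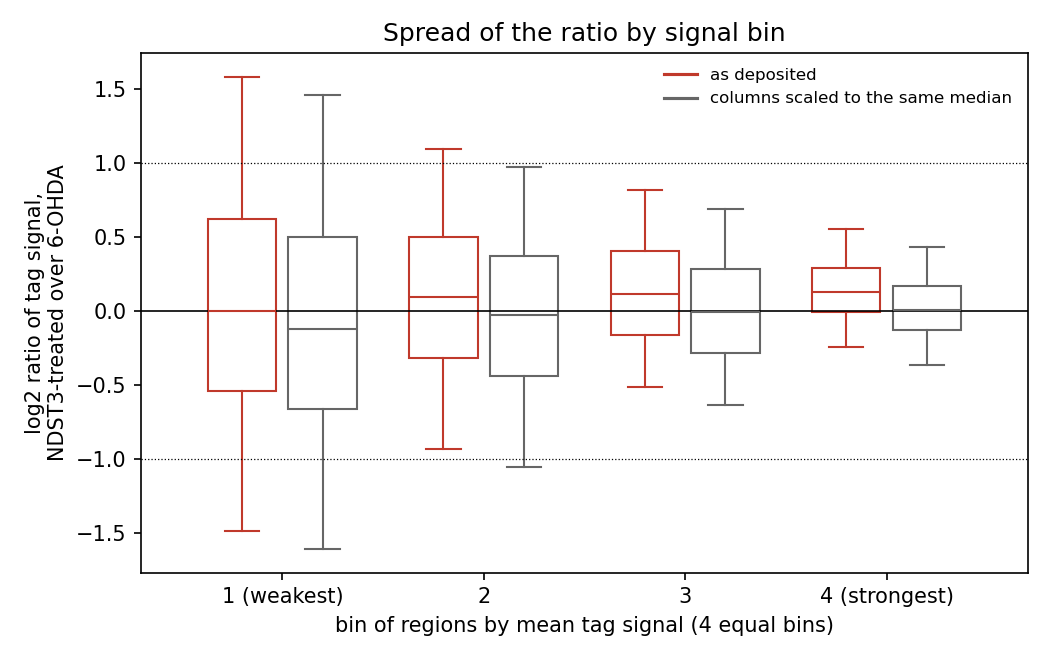
Log2 ratio of NDST3-treated over 6-OHDA signal (vertical axis) for 4 equal bins of regions by mean tag signal (horizontal axis), as deposited and after scaling the columns to the same median. Boxes give the median and quartiles and whiskers the 5th and 95th percentiles over regions, not over animals. The spread narrows from an SD of 0.953 in the weakest to 0.243 in the strongest bin, and dotted lines mark 2-fold.

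Among the 3513 regions with a gene name and a signal of at least 1 in every group, Gen1 had the highest ratio. Gen1, a nuclease that resolves joined DNA molecules after recombination, had a region on chromosome 12 from 11315532 to 11315632, 226 bases past the start, with a signal of 1.3 in 6-OHDA, 13.8 in NDST3-treated and 2.83 in sham (log2 ratio 3.46). Defa28, a gut defensin of a multicopy family, followed with 2, 13 and 7.90 in the same order of groups (2.70). Nrn1, which encodes neuritin, a protein that promotes neurite growth, had 1.5, 9.50 and 3.40 at a region at -738 from its start (2.66). The other 2 Nrn1 regions, nearer the start, had larger signals and small ratios of 0.13 and 0.35, so the high ratio belonged to the weakest of its regions.

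Next came 2 predicted genes, Gm26922 (1.5 in 6-OHDA, 9 in NDST3-treated and 3 in sham, log2 ratio 2.58) and Gm4792 (2.5, 14 and 12.8, 2.49). Tpsab1, a mast cell tryptase, had 1.3, 6.88 and 1.67 (2.46), and its other 2 regions were also higher, with ratios of 0.90 and 1.74. Ndufab1, the mitochondrial acyl carrier protein and a complex I subunit, had 1, 5.50 and 5.40 (2.46), so its treated value was close to sham. Cetn3, a centriole protein, had 2.5, 12.5 and 7.90 (2.32).

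Leprotl1, a membrane protein of endosomes, had 1.5, 7.50 and 2.93 (2.32) at a region 45 bases past its start, and its other regions had ratios of 1.07 and 0.36. Rps4l, a gene of the ribosomal protein S4 family, had 4.50, 21.9 and 8.82 (2.29). Of these 10 regions 9 were in the weakest bin by signal, all were 100 bases wide and none shared a base with an H3K27ac region. Sham lay between the other groups in all 10, which is likely for regions picked by the widest ratio of those groups.

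At the other end stood Stard3nl, a protein of late endosomes, whose region on chromosome 13 from 19580053 to 19580153 had 10 in 6-OHDA, 1.5 in NDST3-treated and 6.40 in sham (log2 ratio -2.74). Gm31786 had 9.25, 1.54 and 7.21 (-2.59), the microRNA gene Mir3075 had 5.75, 1.05 and 3.26 (-2.45), and Gm41486 had 13.2, 2.55 and 6.77 (-2.38). Nlrc4, a sensor protein that assembles an inflammasome, had 22.8, 5.06 and 17.0 (-2.17). The other Nlrc4 region, at -987, was lower as well, with 28.8, 16.6 and 29.7 (-0.79).

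Tlr4, the receptor for bacterial lipopolysaccharide, had 22.8 in 6-OHDA, 5.69 in NDST3-treated and 14.3 in sham at a region at -417 from its start (-2.0). Vsig8, an immunoglobulin domain protein, had 21, 4.61 and 17.8 (-2.19), while its other region had 11.5, 12 and 18.2 (0.06). Commd9, a protein of endosomal sorting, had 8, 2 and 15.2 (-2.0), and its other region was also lower (-0.79). Samd7, known from photoreceptors, had 8.75, 2.06 and 12.9 (-2.09), and 5930403N24Rik had 6.50, 1.5 and 2.5 (-2.12).

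These 10 low regions were spread over 10 chromosomes, 7 of them in the weakest bin. Sham lay between the other groups in 8, and above both at Samd7 and Commd9, and here too the choice by ratio favours a place between them. With a pseudocount of 1 in the ratio, all 20 regions of both ends still passed 2-fold in the same direction.

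**Figure D3:**
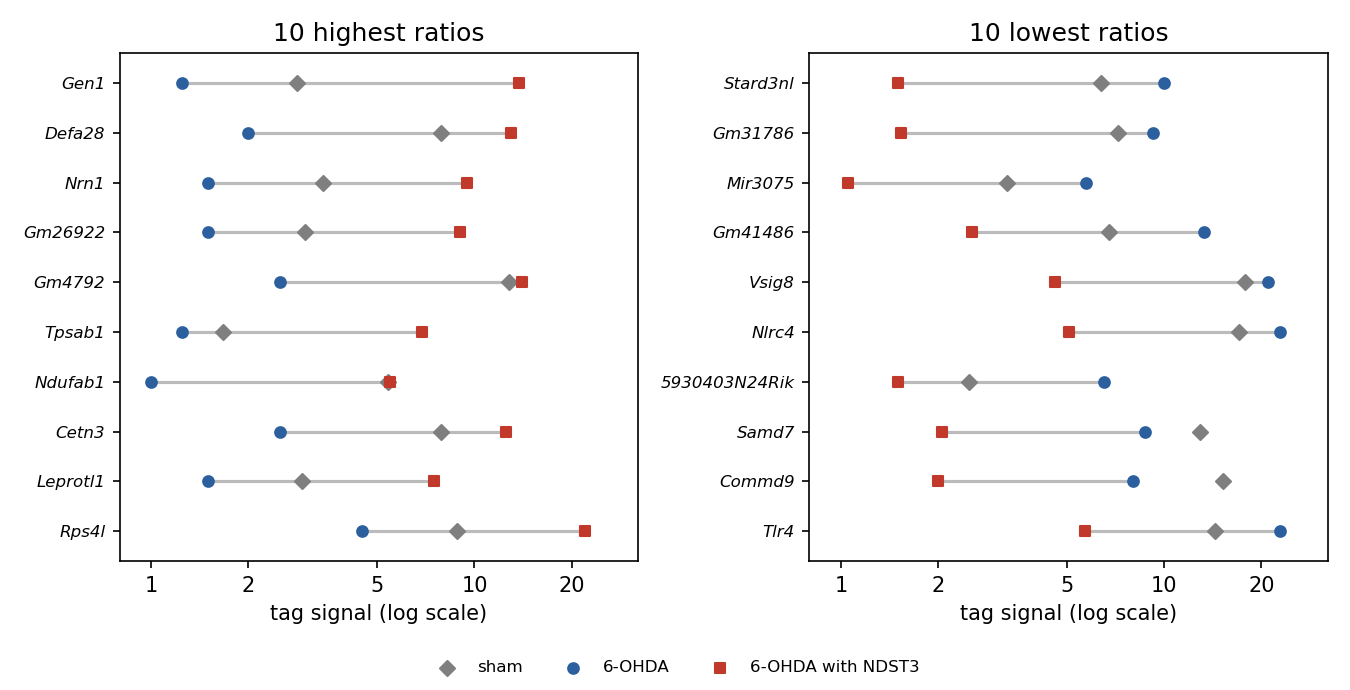
Tag signal (horizontal axis, log scale) of the 10 regions with the highest and the 10 with the lowest NDST3-treated over 6-OHDA ratio, named by gene on the vertical axis, 1 library per group. Grey diamonds are sham, blue circles 6-OHDA and red squares 6-OHDA with NDST3, and grey lines join the latter 2 groups. Sham sits between the others except at Samd7 and Commd9, a place that the choice of regions by the ratio of the other groups favours.

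The strongest regions hardly differed. Snd1, a nuclease of RNA silencing complexes and a transcriptional coactivator, had 862 in 6-OHDA, 925 in NDST3-treated and 850 in sham (log2 ratio 0.10). Ripk2, a kinase that signals from NOD receptors, had 920, 852 and 856 (-0.11). Rad23b, a factor of nucleotide excision repair, had 903, 907 and 808 (0.01). Skp2, which selects proteins for ubiquitination in the cell cycle, had 728, 746 and 706 (0.04), and Gm45952 had 719, 690 and 639 (-0.06). All 5 ratios were below the median of all regions.

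In the strongest bin, 35 regions were higher by 1.5-fold or more and 3 were lower. These 38 were picked out after their values had been seen. The higher ones ran from 0.59 to 1.00 on the log2 scale, and 13 of the 35 kept 1.5-fold after scaling to the same median. Rpl12, a protein of the large ribosomal subunit, had 33.8 in 6-OHDA, 67.4 in NDST3-treated and 27.8 in sham at a region 627 bases past its start. H6pd, an enzyme that makes NADPH in the endoplasmic reticulum, had 29.5, 57.3 and 30.5 (0.96). Glipr2 had 29, 54.3 and 31.4 (0.90), and its second region was higher too, with 30.5, 44.1 and 29.5 (0.53).

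Osm, which encodes the cytokine oncostatin M, had the strongest signal of these 35 regions. Its region at -89 from the start had 134 in 6-OHDA, 210 in NDST3-treated and 117 in sham (0.64), and the region 90 bases past the start had 95.5, 141 and 78.8 (0.56), so NDST3-treated signal stood above both other groups at both regions. Mmp19, a matrix metalloproteinase, had 106, 164 and 108 (0.63). At Lama1, a laminin chain of basement membranes, the region at the start had 45.2, 71.8 and 47.4 (0.67), while the 2 regions further upstream had ratios of 0.00 and -0.05. Cyp1b1, a cytochrome P450 enzyme, had 38.5, 58.2 and 55.4 at its start (0.60) and 38.5, 34.8 and 47.1 at its other region (-0.14).

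The 3 lower regions of the strongest bin were those of Sgms2, a sphingomyelin synthase (48.5 in 6-OHDA, 30.9 in NDST3-treated and 48.2 in sham, log2 ratio -0.65), Dmtn, an actin-bundling protein (76, 48.7 and 73.8, -0.64), and Smchd1, a protein that keeps the inactive X chromosome silent (51.5, 33.2 and 40.9, -0.63). Scaling to the same median lowers every ratio, so it was fixed in advance that all 3 would keep 1.5-fold. Regions of this bin that pass 1.5-fold lower only after scaling were not counted. In each of them the NDST3-treated library was the lowest of the 3.

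Of a list of genes taken by hand from the study's text, which leaves out most of its cell cluster markers, 5 had a region in the table. Ncoa7, a TLDc domain gene that the study follows as a candidate mediator of NDST3, had 2 regions well upstream. The one at -719 from the start, on chromosome 10 from 30679991 to 30680091, had 14.5 in 6-OHDA, 16.5 in NDST3-treated and 14.8 in sham (0.19). The one at -909, from 30680181 to 30680281, had 6.75, 9.87 and 11.9 (0.55, or 0.43 after scaling to the same median). Both were higher, neither reached 1.5-fold and neither shared a base with an H3K27ac region of the deposited table. The study reports raised H3K27ac at the start of Ncoa7 by CUT&RUN and ChIP-qPCR, and plots ATAC-seq signal there. It also reports that knockdown of Ncoa7 weakened the effect of NDST3 in cultured neurons. The 2 regions here lie upstream and do not measure the start itself.

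Slc6a3, the dopamine transporter and the marker of dopamine neurons with a region here, had 24.8 in sham, 8.25 in 6-OHDA and 6.19 in the NDST3-treated PD model at a region at -886 from its start (-0.41). Its sham value was the highest of the 3 and the treated value the lowest. Bulk libraries cannot tell fewer open copies per cell from fewer cells of a type. The mouse Ndst3 gene itself had 3.50 in 6-OHDA, 0.50 in NDST3-treated and 6.40 in sham at a region at -650 from its start (-2.81). These are among the lowest signals of the table, and that region falls short of the signal of 1 asked for above. The transcription factor genes Zeb1 (53.8, 55.2 and 45.7, ratio 0.04) and Evx2 (29.5, 28.9 and 17.7, ratio -0.03) hardly differed between the lesioned groups.

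Regions were then grouped by gene lists and read against all regions, of which 1768 lie above and 1768 below the median ratio. Heparan sulfate synthesis, the pathway of NDST3, had 5 regions from 4 of its genes, all below the median of all regions (median ratio -0.541). Besides Ndst3, the sulfotransferase Hs6st1 had 9.25 in 6-OHDA, 4.63 in NDST3-treated and 1.46 in sham (-1.0) and, at its second region, 9.25, 6.68 and 4.28 (-0.47). Hs3st1, which places another sulfate on the chain, had 8.25, 5.67 and 14.4 (-0.54), and Ndst2, a relative of Ndst3, had 6.50, 6 and 3 (-0.12). These are weak regions, with a median mean signal of 5.17 against 17.3 for all, and the weakest bin of all regions had a median ratio of 0.

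The writers, erasers and readers of histone acetylation had 7 regions, 6 of them above the median of all regions (median ratio 0.322). Most are weak as well, with a median mean signal of 10.0 against 17.3 for all regions. They include both Ncoa7 regions, since coactivators were part of the list. Hdac9, a histone deacetylase, had 6.50 in 6-OHDA, 12.5 in NDST3-treated and 9.56 in sham (0.94) and 8.25, 10.3 and 11.4 at its other region (0.32). Sirt7, a nuclear deacylase, had 14.2, 25.4 and 11.1 at its start (0.84), and Kat8, an acetyltransferase of histone H4, had 101, 119 and 56.4 (0.23). Ncoa2, a nuclear receptor coactivator, was the lowest with 4.50, 4 and 10.3 (-0.17).

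All 5 regions of the spliceosome lay above the median of all regions, with a median ratio of 0.404. Prpf38b, a splicing factor, had 5, 11 and 10.3 (1.14) and, at its neighbouring region, 6, 12 and 10.3 (1.00). Srsf12, a splicing regulator, was the lowest at 0.13. The list rests on few and mostly weak regions, with a median mean signal of 9.43 against 17.3 for all, and both Prpf38b regions share a promoter. Among subunits of RNA polymerases, Polr1g, of RNA polymerase I, had 33.2 in 6-OHDA, 49.8 in NDST3-treated and 32.3 in sham (0.58), and Polr2k, of RNA polymerase II and others, had 107, 120 and 99.6 (0.16).

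The larger lists held regions on both sides of the median. Solute carriers (54 regions) had a median of 0.0749 with 24 above the median region, from Slc35b1 (1.32) to Slc34a2 (-1.05). The ubiquitin machinery (40 regions) had -0.00423 with 14 above, from Fbxl17 (1.00) to Trim32 (-1.0). Zinc finger proteins (39 regions) had 0.138 with 20 above, from Zfp629 (1.06) to Zfp949 (-1.19). Each of these lists had at most 2 regions past 2-fold in one direction.

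Lists of the cell's basic machinery varied in both directions over few regions. Subunits of oxidative phosphorylation had 14 regions with a median of 0.0554, from Ndufab1 to Atp5pb, a subunit of ATP synthase with 13.2, 6.12 and 10.6 (-1.11). Translation factor genes, taken by symbol and so with the methyltransferase gene Eef2kmt, had 10 with -0.321, from Eef2kmt (1.2) to Eif5a2 (-1.38). Histone genes had 11 with -0.0948, from H4c16 (1.58) to H4c12 (-0.87), and Rab GTPases 12 with 0.143, from Rab24 (1.85) to Rab43 (-0.53). Ribosomal proteins had 6 with 0.229, from Rps4l to Rps7 (-0.37), and mitochondrial ribosomal proteins 7 with 0.263, from Mrpl36 (0.51) to Mrpl35 (-1.5). Proteasome genes, taken by symbol and so with the assembly chaperone gene Psmg2, had 5 with 0.0499, from Psmg2 (0.30) to Psme1 (-0.62). The tRNA synthetases had 5 with 0.0966, from Lars1 (0.41) to Rars2 (-0.11).

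Lists tied to the disease had few regions. The TLDc domain genes had 4 (median 0.367), in which Tldc2 was higher, with 23.8 in 6-OHDA, 46.4 in NDST3-treated and 23.8 in sham (0.97), and Oxr1, which protects cells from oxidative damage, was lower, with 28, 16.8 and 16.4 (-0.74). Among genes of inherited Parkinson disease, the lysosomal transporter gene Atp13a2 had 111, 107 and 83.4 (-0.05). DNA repair had 6 (0.0618), from Pole (0.33) to Xrcc5 (-0.48), immediate early genes 5 (0.131), from Myc (0.30) to Nr4a3 (-0.24), and the antioxidant response 1, at Txn2 (0.18).

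Cell type markers were too rarely covered to check the tissue by ATAC-seq. Of 18 markers of dopamine neurons 1 had a region (Slc6a3), of 20 neuron markers 2, Slc17a6 (-0.04) and Nefm (-0.51), and of 10 astrocyte markers 2, Slc1a2 (0.82) and Aqp4 (lowest ratio -0.61). Pdgfra (0.83) stood alone for the oligodendrocyte lineage, Cd68 (0.20) for microglia and macrophages and S100a8 (0.85) for neutrophils. Both endothelial and mural genes with regions, Acta2 and Kdr, had all 4 regions above the median (0.30 to 0.46), and the lymphocyte genes Cd4 (1.00) and Cd3e (-0.26) went apart.

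In RNA-seq of the same conditions, summed marker levels differed between the libraries. The 15 microglia and macrophage markers measured summed to 756 and 513 CPM (counts scaled to library size) in sham, 5870 in 6-OHDA and 2032 and 2938 with NDST3. The 20 neuron markers summed to 11014 and 12172 in sham, 4284 in 6-OHDA and 9890 and 8561 with NDST3. The 18 dopamine neuron markers summed to 1341 and 1307, then 297, then 491 and 509. In the same order of groups, the 10 astrocyte markers summed to 8444 and 7602, then 13640, then 9845 and 9798. A sum is weighted to abundant markers, and members of this list went apart. Aqp4 had 535 and 325, then 2026, then 819 and 1067, whereas Slc1a2 had 2168 and 2211, then 1369, then 2217 and 1727. The 12 oligodendrocyte lineage markers summed to 15314 and 14430, then 17893, then 16209 and 12632. The 14 endothelial and mural markers summed to 597 and 509, then 807, then 438 and 490. Of the lymphocyte and neutrophil markers, 5 of 14 and 3 of 10 were measured. The part of cell makeup in the ATAC-seq ratios was not tested.

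Position within the promoter went with little difference in the ratio. The bins of regions by distance to the start, from the farthest upstream to the start and beyond, had median ratios of 0.124, 0.136, 0.103 and 0.0939. Regions of 100 bases had a median of 0.0931, those of 101 to 150 bases 0.160 and wider ones 0.104, with 181 of the 208 regions higher by 2-fold, and 146 of the 158 lower, among those of 100 bases. Bins by G and C content of the gene's GRCm38 window, from 27.3% to 87%, had medians of 0.0882, 0.121, 0.127 and 0.0987.

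Median ratios by chromosome ranged from 0.0513 on chromosome 9 (147 regions, SD 0.721) to 0.261 on chromosome 7 (192 regions, SD 0.501). On chromosome 7, 70.3% of regions were higher with NDST3, 11 of them by 2-fold and 4 lower by as much. Chromosome X followed (0.234), over 19 of its 64 regions, then chromosomes 17 (0.212), 19 (0.192) and 11 (0.177). The other 45 regions of chromosome X had a 6-OHDA value only, and whether their missing values stand for no signal is unknown. Chromosome 1 had 0.0614 and chromosome 4, whose regions had the highest median signal, 0.0770. Restricted to the upper 2 bins by signal, chromosome X had the highest median (0.290, over 15 regions), followed by chromosome 7 (0.279) and chromosome 11 (0.252), while chromosome 9 had 0.0981 and chromosome 1 the lowest, -0.00352. The interquartile ranges of all chromosomes overlapped.

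**Figure D4:**
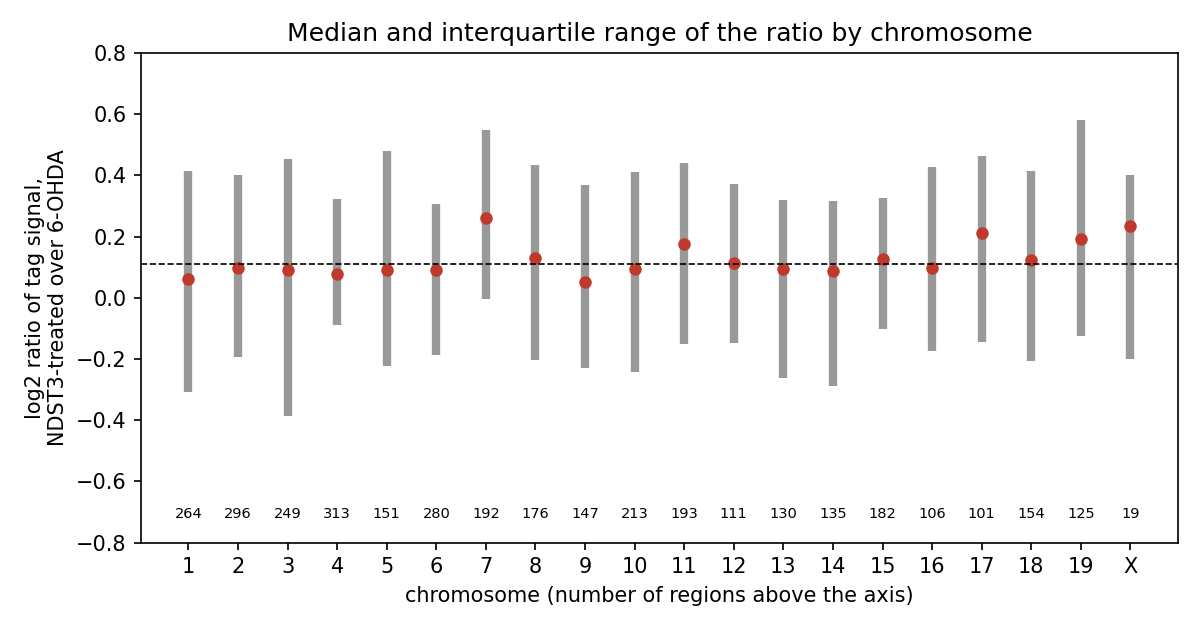
Median (red points) and interquartile range over regions (grey bars) of the NDST3-treated over 6-OHDA log2 ratio by chromosome (horizontal axis), with the number of regions per chromosome above the axis and the median of all regions, 0.110, as a dashed line. Chromosome 7 has the highest median (0.261) and chromosome 9 the lowest (0.0513), and all bars overlap.

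The motifs marked in the sequences above separated the regions little. For this count a window of the same length was cut from GRCm38 at the start of every RefSeq gene record, pseudogenes included, 49588 in all, a larger set than the promoter windows above, and 3423 regions had one by gene name. A GC box was found for 42.4% of these regions, against 23.5% of all 49588 windows. The median ratio was 0.107 with it and 0.112 without. The CRE, the target of CREB, had 2.57% of regions against 1.28% of all windows, and ratios of 0.0562 with and 0.109 without it. NRF1 (3.53%, against 1.96%) had 0.138 with and 0.107 without, ETS (9.79%, against 5.99%) 0.113 and 0.107, and YY1 (2.57%, against 2.99%) 0.0615 and 0.108. In the windows of their genes, the YY1 motif was found for 7.24% of the regions lower by 2-fold and 1.5% of those higher by 2-fold. NRF1 (0.658% of the lower and 3.50% of the higher regions), ETS (6.58% and 12.5%) and the GC box (34.9% and 43.5%) went the other way. The YY1 and NRF1 shares rest on few regions. The remaining motifs, E-box, CCAAT box, AP-1 and TATA box, had medians of 0.0669 to 0.102 with and 0.108 to 0.113 without. A match is a run of letters and not a bound site, and motifs can adjoin or overlap.

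Regions of the same gene allowed a look at how far ratios repeat within a promoter, although both come from the same libraries and are no replicates. Across 874 pairs of neighbouring regions of 1 gene, a median of 98 bases apart, Pearson's r of the ratios was 0.283 and 63.2% had the same sign. The median difference between neighbours was 0.551 where the weaker of the pair was in the weakest bin and 0.0995 where both were in the strongest, in which 78.4% had the same sign. Of all regions of the strongest bin 74.1% were higher, so agreement in sign there comes partly with the common shift. Of the 112 genes with 3 or more regions on 1 chromosome, 28 were higher in every region and 13 lower in every one. Over all 3537 regions 58.9% were higher and 1355 regions lower, and these counts were not tested against that background. In 3 genes, 1 region was higher and another lower by 2-fold. They were Gnb5, a G protein subunit (4.75 in 6-OHDA to 10.6 in NDST3-treated at one region and 14 to 4.50 at the other), Nid2, a basement membrane protein (7 to 18 and 13 to 6.50), and Ppp3cb, a calcineurin subunit (4 to 10 and 13 to 6.50).

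H3K27ac was read where a CUT&RUN region shared at least 1 base with an ATAC-seq region, which held for 379 regions (10.7%). The share was 7.21% of the regions higher by 2-fold (15 of 208), 10.8% of those lower (17 of 158) and 16.2% of the strongest bin. Among the 379, H3K27ac was higher in the NDST3-treated column at 368 and equal at 11, with a median log2 ratio of 0.391. It was 0.300 at regions whose accessibility was higher by 2-fold and 0.330 at those lower by 2-fold. The whole CUT&RUN table of 11424 regions holds none with a lower value in the NDST3-treated than in the 6-OHDA column. Of all regions listed there, 96.3% were higher, 425 were equal and the median log2 ratio was 0.415, so the values at accessible regions did not exceed those of the table. The medians of the 2 CUT&RUN columns differ by 0.480 on the log2 scale, more than any of these median ratios, and how they were scaled is not stated. It gives the 2 libraries of a group as 1 column, so no spread is available.

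The sizes of the accessibility and H3K27ac ratios had a Pearson's r of 0.0892 across the 379 regions, which share their libraries. At Stard3nl, H3K27ac was 14.9 in 6-OHDA, 15.9 in NDST3-treated and 17.0 in sham while accessibility was lower, and at Commd9 it was 14.9, 15.9 and 9.06. At Glipr2 it was 6.95, 9.93 and 8.56, and at the lower Smchd1 region 15.9, 23.8 and 30.2.

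**Figure D5:**
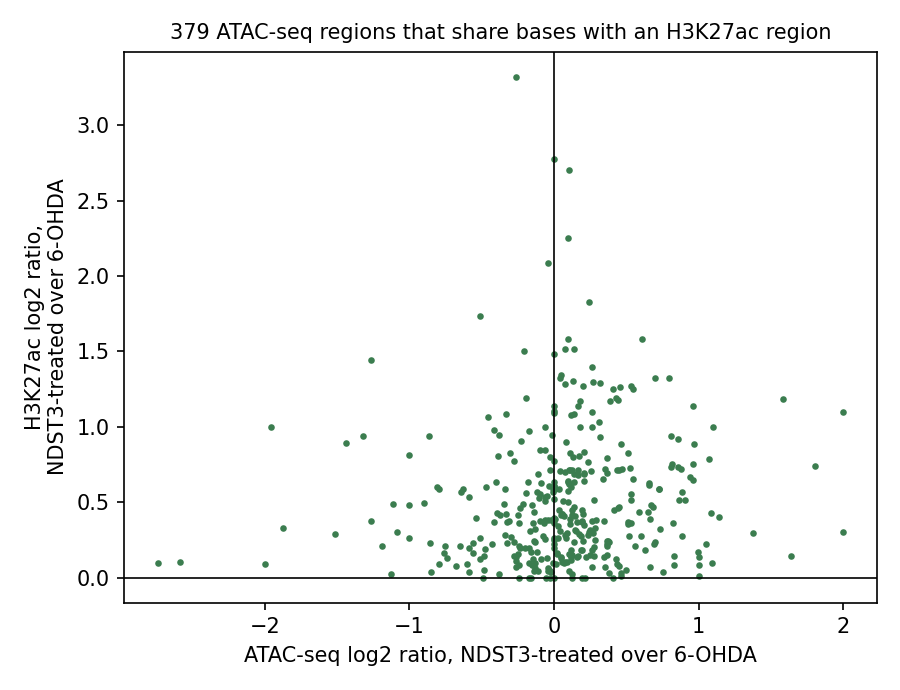
H3K27ac log2 ratio (vertical axis) against ATAC-seq log2 ratio (horizontal axis), both NDST3-treated over 6-OHDA, for 379 ATAC-seq regions that share at least 1 base with a CUT&RUN region, 1 point each. H3K27ac lies at or above 0 throughout, as it does in the whole deposited table, while accessibility falls on both sides of 0.

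Transcripts of the genes with a region were followed in RNA-seq of 5 libraries, 2 sham, 1 6-OHDA and 2 NDST3-treated, with 51003699 to 70533326 counts each. Ndst3 itself had 14.1 and 21.0 CPM in sham, 7.96 in 6-OHDA and 23.3 and 13.5 in the NDST3-treated libraries (log2 fold change 1.21, standard error 0.43, adjusted p = 0.111 in the quasi-likelihood test of edgeR, Benjamini-Hochberg adjusted). At least one of the constructs described carries the human sequence, so the RNA of the mouse gene is no direct check of delivery. Of 1876 genes with a region that could be tested, 206 had higher RNA in the NDST3-treated PD model (11.0%) and 141 lower (7.52%) at an adjusted p under 0.05, beside a background over all 19300 genes tested of 9.06% higher and 6.59% lower. These calls rest on 1 6-OHDA library, whose spread was taken from the other groups. Without sham replicate 1, without sham replicate 2 or without NDST3-treated replicate 1 edgeR called none of the 1876 in either direction, whereas 332 to 360 were then higher and 274 to 325 lower at an unadjusted p under 0.05, and DESeq2 on all 5 libraries called 325 and 277.

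RNA calls in both directions occurred at genes with more and at genes with less accessible regions, and the shares were not tested against each other. Of 149 tested genes with a region higher by 2-fold, 15 had higher (10.1%) and 8 lower RNA (5.37%), and of 108 with a region lower by 2-fold, 14 had higher (13.0%) and 9 lower RNA (8.33%). Across 1876 genes, by their strongest region, Pearson's r of the log2 ratios of accessibility and RNA was -0.0320, and it was -0.0120 over the 1049 genes in the upper 2 bins by signal. Genes are no independent replicates, and the libraries behind all of them are the same.

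Some genes went the same way in both measures and others apart. Spx, which encodes the peptide spexin, had 2 in 6-OHDA, 9.50 in NDST3-treated and 10.8 in sham for accessibility (2.25), and its RNA rose by a log2 fold change of 3.80 (standard error 0.45, adjusted p = 0.032 in edgeR). Klhl1, Glra3, a glycine receptor subunit, and Dscam, an adhesion molecule of neurons, were also higher in both, with accessibility ratios of 1.64, 2.17 and 2.0 and RNA log2 fold changes of 2.31, 1.85 and 0.75 (highest adjusted p = 0.045 in edgeR). Tlr4 was lower in both, its RNA at 4.23 and 3.04 CPM in sham, 27.2 in 6-OHDA and 8.23 and 11.6 in NDST3-treated (log2 fold change -1.45, standard error 0.29, adjusted p = 0.0416 in edgeR). These genes were chosen after their values had been seen, and their calls in RNA were lost without sham replicate 1, without sham replicate 2 or without NDST3-treated replicate 1, with adjusted p-values of up to 0.17 over the alternatives.

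In other genes RNA went against accessibility. Snap91, a protein of clathrin-coated synaptic vesicles, had 9.75 in 6-OHDA, 3.59 in NDST3-treated and 10.0 in sham at its region (-1.44) and a log2 fold change of 1.16 in RNA (adjusted p = 0.032 in edgeR). Tmem45a had 2.75, 11.6 and 3.12 (2.07), and its RNA fell by 2.24 on the log2 scale (adjusted p = 0.0404 in edgeR). Among all 1876 tested genes with a region, 11.0% had higher and 7.52% lower RNA, the background for the small counts that follow. In the strongest bin, the 35 more accessible regions belonged to 26 tested genes, of which 3 had higher and 7 lower RNA. Cyp1b1 was one of the latter, with 10.9 and 5.23 CPM in sham, 51.8 in 6-OHDA and 5.88 and 6.33 in NDST3-treated (log2 fold change -3.08, adjusted p = 0.032 in edgeR), and Rpl12 and Glipr2 were others (-0.66 and -1.53, highest adjusted p = 0.0344 in edgeR). Nxph1, a neurexin ligand, and Gpr176 were higher in both (1.41 and 1.20, highest adjusted p = 0.0335 in edgeR), and RNA of Dmtn, whose region was lower, was higher (1.36, adjusted p = 0.032 in edgeR). These calls too were lost without any one of the same 3 libraries. For Osm, log2 fold change -1.01, the adjusted p was 0.202 in edgeR.

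Ncoa7 RNA had 78.5 and 94.5 CPM in sham, 36.0 in 6-OHDA and 79.4 and 80.6 in NDST3-treated, a log2 fold change of 1.15 (standard error 0.15, adjusted p = 0.032 in edgeR), with adjusted p-values from 5.51e-08 to 0.159 over 9 alternatives and under 0.05 in 4 of them. Its 2 regions, given above, had accessibility ratios of 0.19 and 0.55. Slc6a3 RNA had 228 and 243 CPM in sham, 0.155 in 6-OHDA and 6.38 and 1.34 in NDST3-treated (log2 fold change 4.62, standard error 1.39, adjusted p = 0.0798 in edgeR). Among the genes with the 10 highest and the 10 lowest accessibility ratios, 12 could be tested in RNA and Tlr4 alone passed. Over all 1876 tested genes with a region, 11.0% were called higher and 7.52% lower.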

How the data were processed

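ATAC-seq was available as 1 library per group, CUT&RUN for H3K27ac as 2 libraries per group given in 1 column, and RNA-seq as 2 sham, 1 6-OHDA and 2 NDST3-treated libraries. The authors deposited ATAC-seq and CUT&RUN values as tag signal per region. For ATAC-seq they trimmed reads with Trim Galore, aligned them to mm10 with Bowtie2 and removed mitochondrial and duplicate reads. They then called broad peaks with MACS2 using its human genome size and no local background, removed blacklisted regions and annotated the rest with ChIPseeker. The study's methods give these steps for ATAC-seq only. The scaling of the tag signal, any shift of reads for the transposase and the depth are not given in the sources used here. A wrong genome size changes which regions are called but not their tags. The authors deposited RNA-seq as raw read counts per gene. No deposited column of the authors' own comparisons was used.

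Log2 ratios were taken without a pseudocount, and calls on ATAC-seq regions were made by fold alone. Named were the 10 regions with the highest and the 10 with the lowest ratio (with a gene name and a signal of at least 1 in every group), the 5 strongest regions, the regions of a list of genes taken by hand from the study's text (not all that it names) and the highest and lowest member of each gene list. A few members of these lists, and the summaries of the lists that rest on them, are not reported here. The comparison and the lists were chosen with earlier results of these data known. RNA counts of all 5 libraries were fitted with edgeR 4.0.16 (quasi-likelihood test, TMM, filterByExpr, Benjamini-Hochberg adjustment over 19300 of 20328 genes, 2 residual degrees of freedom), with DESeq2 1.42.0 as an alternative, in R 4.3.3. The labels do not say that the libraries of a group came from separate animals, so these p-values may measure technical spread. Python 3.11.15 with pandas 2.3.3 and scipy 1.17.1 was used for the regions. Both steps were tested on simulated data with known changes. Printed promoter windows came from RefSeq's promoter table on GRCm38.p6, and G and C content and motif shares from windows cut at the start of each gene record of the RefSeq annotation.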

Additional observations from a re-analysis of the deposited data

How the results depend on the processing

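The median log2 ratio of 0.110 changed sign when the columns were scaled to the same median (-0.012) or the same total (-0.014), by the construction of that scaling, and kept its sign under the other 4 of 6 alternatives (0.107 to 0.120). The counts past 2-fold, 208 higher and 158 lower, became 143 and 199 under either scaling, 82 and 45 without the weakest signal bin, 576 and 368 at 1.5-fold, 1120 and 667 at the smallest fold tried, a rise by 0.25 of the lower value, and 802 and 874 at that fold with columns scaled to the same median. With a pseudocount of 1 they were 156 and 125, and with 1 region per gene 169 and 113. With 1 library per group and depth unknown, no alternative replaces a replicate.

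Among genes with a region, the RNA-seq calls, 206 higher and 141 lower, became 325 and 277 with DESeq2. With only the 6-OHDA and NDST3-treated libraries edgeR called 0 and 0, with 333 and 321 at an unadjusted p under 0.05. Leaving out 1 library at a time gave 0 to 197 higher and 0 to 167 lower, with 0 and 0 unless the library left out was NDST3-treated replicate 2. The cause was not tested. With the replicate block edgeR called 0 higher and 0 lower (287 and 229 at an unadjusted p under 0.05). Deviations of the first sham and first NDST3-treated replicates from their group means correlated at -0.337, so libraries of the same number did not deviate together. With 2 libraries in each of these groups, the first sham and second NDST3-treated replicates correlate by the same size with the opposite sign. What they share was not tested. A crossed replicate block, added after seeing the data, called 281 and 261.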
